A study of Mus musculus with 8 samples.

Results

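The genes of cholesterol synthesis and of its transcriptional control by the sterol regulatory element-binding proteins (SREBPs) were examined in RAW264.7 cells treated with recombinant FSTL1 (rFSTL1). A list of 33 genes was taken by symbol from the 22013 genes of the deposited count table, and each symbol matched 1 row. RAW264.7 is a mouse macrophage-like cell line, and all 8 libraries came from it. Of these, 4 libraries were from cells given PBS and 4 from cells given rFSTL1 at 100 ng/mL for 24 h. Neither group carried a genetic change according to the labels, and the labels do not say whether the replicates of a group were separate cultures, so p-values here measure the spread between these samples.

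Cholesterol is built from acetyl-CoA through mevalonate, isoprenoid diphosphates, squalene and lanosterol. When sterols in the endoplasmic reticulum run low, SCAP carries the SREBPs to the Golgi, where they are cut and released to switch on the genes of this pathway, whereas INSIG proteins hold SCAP back when sterols are plentiful. SREBP2 acts mainly on cholesterol genes and SREBP1 mainly on fatty acid genes. In macrophages the pathway competes with cholesterol taken up from the surroundings, so its transcripts are a common readout of sterol supply.

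Promoter sequences are shown for 4 members whose values are described below. Hmgcs1, Idi1 and Cyp51 are 3 of the 4 members with a lower level and an unadjusted p under 0.05, and Mvk had the highest fold change. Each run holds the 160 bases before the annotated start (RefSeq, GRCm38.p6, read 5′ to 3′ along the gene). Bases just after that start stood in 1 GENCODE M21 transcript each for Idi1, Cyp51 and Mvk and in 0 for Hmgcs1. The Hmgcs1 start thus rests on RefSeq alone. Capitals mark the letters TCACNCCAC, a form of the sterol regulatory element, and CCAAT, the letters bound by NF-Y, a factor that works beside SREBPs, on either strand, so that CCAAT on the opposite strand reads ATTGG.
Hmgcs1, chr13:119690191-119690350 (+ strand): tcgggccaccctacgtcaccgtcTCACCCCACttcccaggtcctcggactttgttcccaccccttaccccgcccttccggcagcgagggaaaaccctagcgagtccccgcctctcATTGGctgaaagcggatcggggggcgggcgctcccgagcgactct
Idi1, chr13:8885446-8885605 (+ strand): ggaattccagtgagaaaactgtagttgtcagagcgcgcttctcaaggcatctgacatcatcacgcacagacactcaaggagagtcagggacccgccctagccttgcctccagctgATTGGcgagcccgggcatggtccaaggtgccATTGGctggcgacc
Cyp51, chr5:4104698-4104857 (- strand): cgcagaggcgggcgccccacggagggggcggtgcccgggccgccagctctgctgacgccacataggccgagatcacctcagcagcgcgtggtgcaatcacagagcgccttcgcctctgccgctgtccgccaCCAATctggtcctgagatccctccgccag
Mvk, chr5:114444109-114444268 (+ strand): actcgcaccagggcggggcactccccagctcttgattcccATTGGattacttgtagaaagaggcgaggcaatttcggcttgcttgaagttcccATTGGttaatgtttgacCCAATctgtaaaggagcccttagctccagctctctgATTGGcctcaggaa

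RefSeq promoter windows of 300 bases, 250 before and 50 after a start, were used for 25 of the 33 members, as 31 windows. Any member windows on 1 chromosome were left out, whereas the windows of all tested genes kept that chromosome. The shares below therefore compare unlike sets of windows. CCAAT stood in 21 of the 31 member windows (67.7%) and in 38.3% of the windows of all tested genes. The element TCACNCCAC stood in 1 window, that of Hmgcs1, 137 bases before the start, and in 1.10% of the windows of tested genes. The GC box GGGCGG, bound by SP1, stood in 23 windows against 63.3%, and the E-box CACGTG, which SREBPs can also bind, in 6 windows against 10.2%. All letters were searched on both strands, the 4 motifs can share no more than letters at their ends, and a match is a description of the letters only.

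Total counts were 15062026 to 20234472 per library. No 2 libraries of a group agreed within sampling noise. Chi-square over its degrees of freedom was 3.05 to 4.23 for pairs of PBS libraries and 4.52 to 19.1 for pairs of rFSTL1 libraries, highest for rFSTL1 replicates 2 and 4. All 8 macrophage markers were tested. Their summed level was 3892 to 4062 CPM (counts scaled to a common library size, by TMM) under PBS and 3875 to 4084 CPM under rFSTL1. Single markers differed widely in level, and Adgre1 had a mean of only 3.43 CPM under PBS and 3.66 CPM under rFSTL1. Their log2 fold changes ran from -0.13 (Ptprc, edgeR adjusted p = 0.204) to 0.13 (Spi1, edgeR adjusted p = 0.341). Of 15 markers of fibroblasts, endothelium, hepatocytes, adipocytes, T cells and B cells, none was tested, 4 were at 0 counts in every library, and their summed level was 0.657 to 1.52 CPM under PBS and 0.576 to 1.85 CPM under rFSTL1. In these bulk samples, fewer cells and less RNA per cell cannot be told apart.

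The pathway was well expressed in both groups and differed little between them. Of the 33 members, 32 passed the expression filter. By edgeR's quasi-likelihood test, 0 of the 32 had an adjusted p under 0.05 over all genes, where 0.344% of all tested genes did. The lowest adjusted p was 0.106, for Hmgcs1. The log2 fold changes ran from -0.20 (Idi1) to 0.16 (Mvk) with standard errors of 0.04 to 0.14. A positive value was found for 17 members and a negative one for 15, and 52% of all tested genes were positive. The median was 0.01 over the members and 0.01 over all tested genes. Leaving out 1 library moved the fold change of 26 of the 32 members by over 1.5 times or turned its sign in at least 1 case, and the 6 others were Hmgcs1, Idi1, Fdps, Cyp51, Hsd17b7 and Stard4.

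These estimates had smaller errors than those of the typical gene. The median standard error was 0.05 over the members and 0.07 over all tested genes, and the median spread between replicates, as the SD of log2(CPM + 1) within a group, was 0.07 against 0.10. The median level was 163 CPM against 37.9 CPM over all tested genes. For 29 of the 32 members the 95% interval of the fold change lay inside a 1.2-fold difference in either direction, and for all 32 it lay inside 1.5-fold. The 3 members whose interval reached past 1.2-fold were Mvk, Idi1 and Tm7sf2, with bounds of 0.36, -0.34 and 0.39 on the log2 scale.

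**Figure D1:**
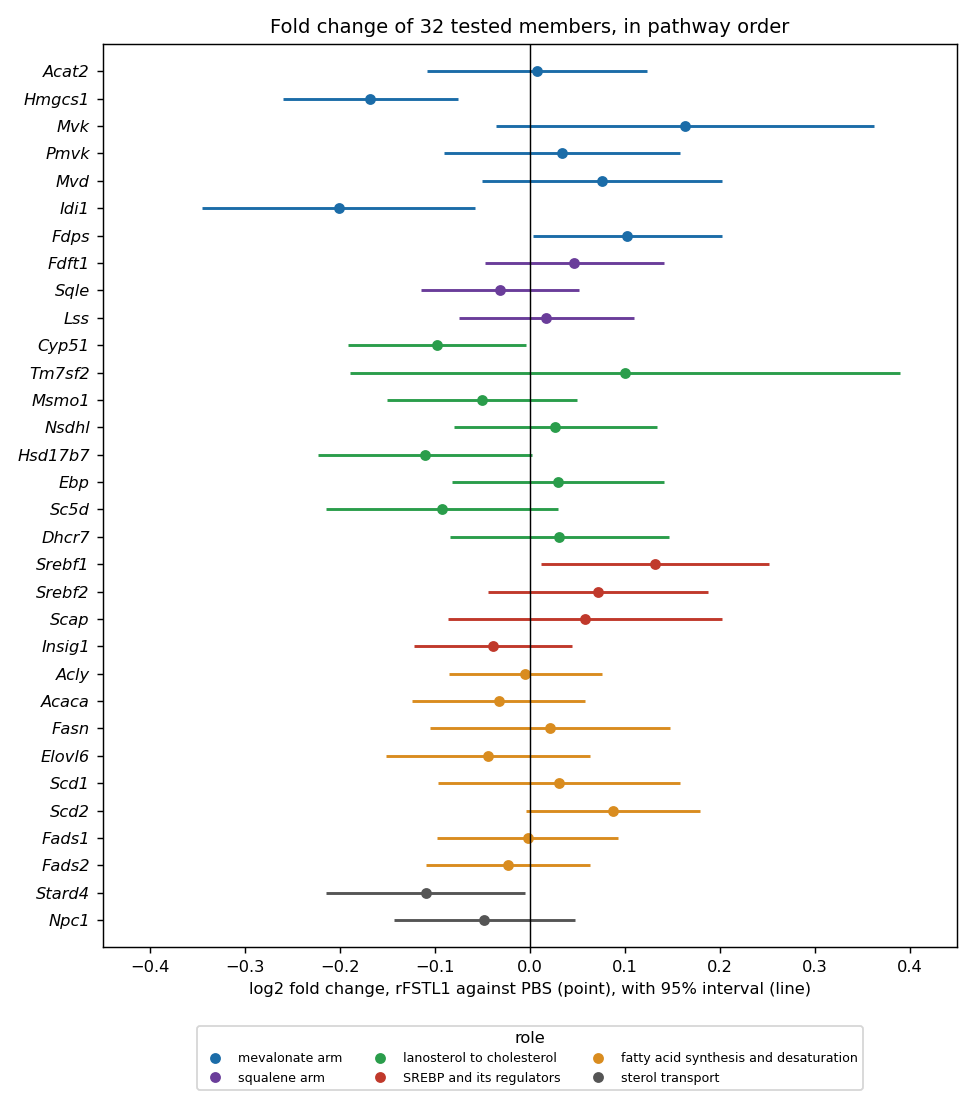
Log2 fold change (x axis, rFSTL1 against PBS) of each of the 32 tested members (y axis, in pathway order, coloured by role), with its 95% interval from edgeR. Hmgcs1 (-0.17) and Idi1 (-0.20) lie farthest to the left, Mvk (0.16) farthest to the right, and most intervals cross 0.

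Without adjustment, 6 of the 32 members had an edgeR p under 0.05. These were 2 with a higher level under rFSTL1, Srebf1 and Fdps, where 8.29% of all tested genes passed in that direction, and 4 with a lower level, Hmgcs1, Idi1, Stard4 and Cyp51, where 7.56% did. In 1 member, Hmgcs1, every rFSTL1 library lay below every PBS library, which was so for 3.53% of all tested genes. In 0 members did every rFSTL1 library lie above every PBS library, against 4.63% of all tested genes.

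The mevalonate arm held both ends of the range. Hmgcs1 (ENSMUSG00000093930), which joins acetyl-CoA units into HMG-CoA, had 384, 396, 391 and 373 CPM in PBS replicates 1 to 4 and 368, 344, 332 and 331 CPM in rFSTL1 replicates 1 to 4. The groups did not overlap, and rFSTL1 replicate 1 lay nearest to the PBS libraries. The PBS mean was 386 ± 9.84 CPM and the rFSTL1 mean 344 ± 17.0 CPM (± SD, n = 4 each). Its log2 fold change of -0.17 had a standard error of 0.04 and a 95% interval of -0.26 to -0.08, a fitted difference of -11.0%. The unadjusted p was 0.00143 and the adjusted p 0.106 by edgeR, and a two-sided exact permutation test gave 0.0286, the smallest p that 4 against 4 libraries allow.

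The call of Hmgcs1 depended on the tool. DESeq2 gave it an adjusted p of 0.00818 (0.82% of genes called lower by that tool). With limma voom and sample quality weights the adjusted p was 0.0169 (1.95% called lower), and edgeR without rFSTL1 replicate 1 gave 0.0433 (0.129% called lower). The adjusted p ran from 0.00818 to 0.349 over all alternatives, and the fold change was negative in each of them.

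Idi1 (ENSMUSG00000058258), the isomerase that makes the reactive isoprenoid unit, had 388, 449, 426 and 408 CPM under PBS and 417, 372, 345 and 320 CPM under rFSTL1. Replicate 1 of rFSTL1 lay inside the PBS range and the other 3 lay below it. On the log2 scale the fold change was -0.20 (standard error 0.07, edgeR adjusted p = 0.192). Limma voom called it at an adjusted p of 0.0356 and edgeR without rFSTL1 replicate 1 with 0.0490, and over all alternatives the adjusted p reached 0.448.

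Mvk, mevalonate kinase, had 33.94, 33.93, 35.38 and 32.98 CPM under PBS and 32.87, 32.02, 42.13 and 44.96 CPM under rFSTL1. Replicates 1 and 2 of rFSTL1 lay below every PBS library and replicates 3 and 4 above. Its log2 fold change was 0.16 with a standard error of 0.09, and without rFSTL1 replicate 4 it was 0.07.

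Fdps, which makes farnesyl diphosphate, had 360, 339, 333 and 320 CPM under PBS and 358, 343, 367 and 383 CPM under rFSTL1. The groups overlapped, with rFSTL1 replicates 3 and 4 above every PBS library. Fdps had a log2 fold change of 0.10 with a standard error of 0.05 (unadjusted p = 0.0446, adjusted p = 0.301 by edgeR). Acat2, the cytosolic thiolase at the head of the pathway, had 0.01, Pmvk, phosphomevalonate kinase, 0.03, and Mvd, the decarboxylase that follows, 0.08 as log2 fold changes. Of the 7 genes of the arm, Hmgcs1 and Idi1 had negative and the other 5 positive fold changes, of which those of Acat2 and Pmvk turned negative without PBS replicate 4 and that of Mvd was then 0.02.

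**Figure D2:**
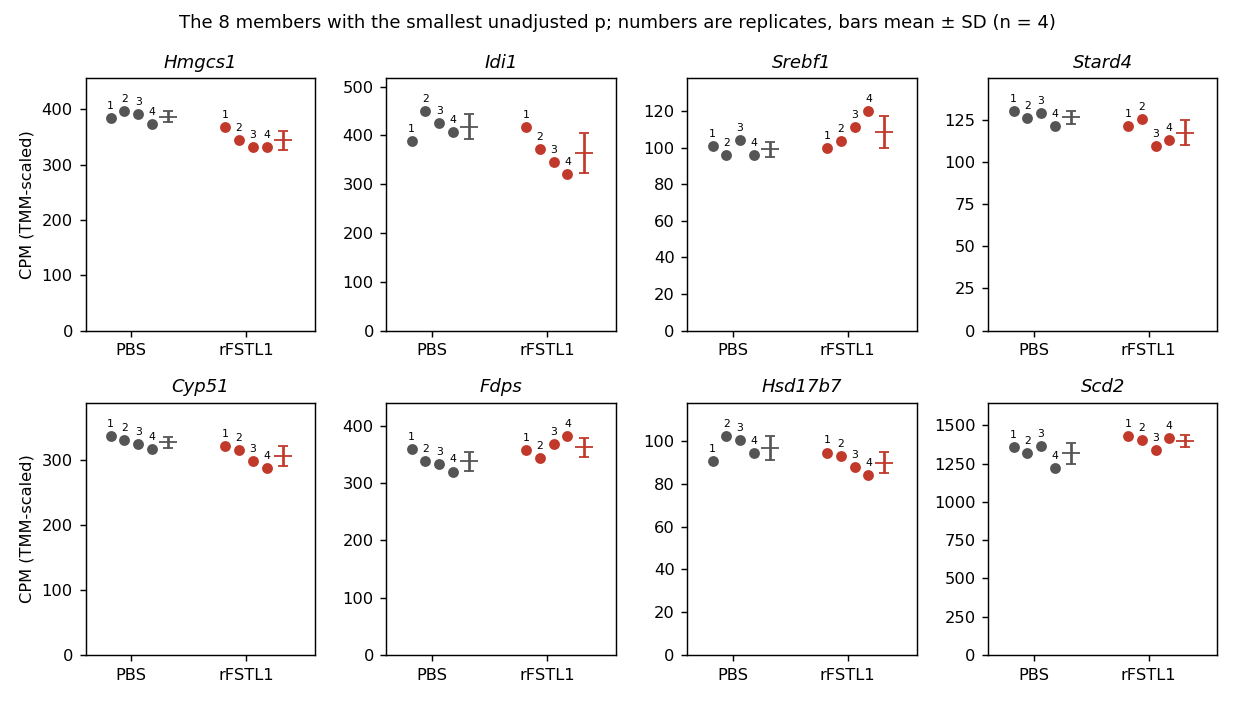
CPM (y axis, from 0) in each library, by group (x axis), of the 8 members with the smallest unadjusted p. Points are libraries numbered by replicate and the bars are mean ± SD (n = 4). Hmgcs1 alone of the 8 has no overlap between the groups.

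In the squalene arm, Sqle, squalene epoxidase and a rate-limiting step, had 267, 272, 266 and 270 CPM under PBS and 275, 256, 258 and 262 CPM under rFSTL1. The rFSTL1 values lay on both sides of the PBS values. Its log2 fold change was -0.03, with a 95% interval of -0.11 to 0.05. Fdft1, squalene synthase, had 0.05 and Lss, which closes squalene into lanosterol, 0.02.

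Of the 8 genes that turn lanosterol into cholesterol, 4 had a positive and 4 a negative fold change. Cyp51, the lanosterol demethylase, had 338, 331, 325 and 318 CPM under PBS and 322, 317, 300 and 288 CPM under rFSTL1. Replicate 1 of rFSTL1 lay inside the PBS range and the others below it. Cyp51 had a log2 fold change of -0.10 with a standard error of 0.04 (unadjusted p = 0.0414, adjusted p = 0.293 by edgeR).

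Hsd17b7, a sterol ketone reductase, had 90.5, 103, 101 and 94.4 CPM under PBS and 94.7, 93.2, 87.8 and 84.3 CPM under rFSTL1. Replicates 1 and 2 of rFSTL1 lay inside the PBS range and replicates 3 and 4 below it, and the log2 fold change was -0.11 (unadjusted p = 0.0532, adjusted p = 0.322 by edgeR). Sc5d, the sterol desaturase, also had its lowest values in rFSTL1 replicates 3 and 4, with 175, 168, 148 and 145 CPM under rFSTL1 against 170, 174, 172 and 162 CPM under PBS.

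Msmo1, the methyl sterol oxidase that acts after Cyp51, had a log2 fold change of -0.05. The 4 positive ones were 0.10 for Tm7sf2, a sterol reductase and the least expressed tested member (4.19 to 5.34 CPM over all libraries, log2 fold change 0.05 without rFSTL1 replicate 4), 0.03 for Nsdhl, a sterol dehydrogenase, 0.03 for Ebp, a sterol isomerase, and 0.03 for Dhcr7, a late sterol reductase. The median over the 8 genes was -0.01.

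Among the regulators, Srebf1, which encodes SREBP1, had 101, 95.7, 104 and 95.8 CPM under PBS and 99.7, 103, 111 and 120 CPM under rFSTL1. Replicates 3 and 4 of rFSTL1 lay above every PBS library and replicates 1 and 2 inside the PBS range. Srebf1 had a log2 fold change of 0.13 with a standard error of 0.06 (unadjusted p = 0.0335, adjusted p = 0.277 by edgeR), and without rFSTL1 replicate 4 the fold change was 0.08.

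Srebf2, which encodes SREBP2, had 325, 310, 318 and 327 CPM under PBS and 321, 307, 339 and 377 CPM under rFSTL1. The rFSTL1 libraries lay on both sides of the PBS range. Its log2 fold change was 0.07 (95% interval -0.04 to 0.19), and without rFSTL1 replicate 4 it was 0.01.

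Scap, which encodes the escort of both SREBPs, had 78.4, 70.4, 83.6 and 77.1 CPM under PBS and 75.0, 74.3, 80.9 and 91.6 CPM under rFSTL1, and only rFSTL1 replicate 4 lay outside the PBS range. Its log2 fold change was 0.06 (95% interval -0.09 to 0.20). Insig1, the sterol-sensing retention protein and itself an SREBP target, had 194, 195, 188 and 185 CPM under PBS and 190, 186, 180 and 187 CPM under rFSTL1. Its groups overlapped, and the log2 fold change was -0.04 (95% interval -0.12 to 0.04).

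The 8 genes of fatty acid synthesis and desaturation had a median log2 fold change of 0.00 and a range of -0.04 (Elovl6, the elongase of palmitate) to 0.09 (Scd2). Elovl6 had -0.01 without rFSTL1 replicate 3 and -0.09 by limma voom. Fasn, fatty acid synthase, had 1050, 998, 1080 and 1072 CPM under PBS and 1016, 952, 1082 and 1211 CPM under rFSTL1. The rFSTL1 libraries lay on both sides of the PBS range, and the log2 fold change was 0.02 (95% interval -0.11 to 0.15).

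Scd2, a stearoyl-CoA desaturase, had 1356, 1322, 1368 and 1218 CPM under PBS and 1432, 1401, 1341 and 1419 CPM under rFSTL1. Only rFSTL1 replicate 3 lay inside the PBS range. Scd2 had a log2 fold change of 0.09 with a standard error of 0.04 (unadjusted p = 0.0591, adjusted p = 0.332 by edgeR), and without PBS replicate 4 the fold change was 0.05. Its paralog Scd1 had 120, 127, 129 and 111 CPM under PBS and 125, 136, 113 and 124 CPM under rFSTL1, which overlapped (log2 fold change 0.03, 95% interval -0.10 to 0.16). Counts that were not whole numbers stood in 7 members, Acat2, Fdft1, Cyp51, Tm7sf2, Scd1, Scd2 and Npc1, whose values are less certain if the counting split reads between loci. Which loci shared such reads was not tested.

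The remaining 4 genes of this group had log2 fold changes of -0.01 for Acly, which makes cytosolic acetyl-CoA, -0.03 for Acaca, acetyl-CoA carboxylase, 0.00 for Fads1 and -0.02 for Fads2, both fatty acid desaturases. The lowest bound of their 95% intervals was -0.12 (Acaca) and the highest 0.09 (Fads1).

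Of the transport genes, Stard4, a cytosolic sterol carrier induced by SREBP2, had 130, 126, 129 and 121 CPM under PBS and 121, 126, 110 and 113 CPM under rFSTL1. Replicate 2 of rFSTL1 lay inside the PBS range and the other 3 below it. Stard4 had a log2 fold change of -0.11 with a standard error of 0.05 (unadjusted p = 0.0405, adjusted p = 0.292 by edgeR). Npc1, which exports cholesterol from lysosomes, had -0.05 (95% interval -0.14 to 0.05).

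Npc1l1, the intestinal sterol uptake protein, was not tested. It had 0, 1, 1 and 0 counts in the PBS libraries and 0, 6, 1 and 1 counts in the rFSTL1 libraries. In rFSTL1 replicate 2, which held the 6 counts, the hepatocyte markers Alb, Ttr and Apoa1 had 13, 2 and 2 counts, against at most 1 count of Alb and 0 of Ttr and Apoa1 in every other library. Their part in this value was not tested.

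The rFSTL1 libraries differed in how many members lay outside the PBS range and on which side. In rFSTL1 replicate 1, 3 members lay above every PBS library and 3 below, where 21.7% and 21.1% of all tested genes did. Replicate 2 had 4 above and 12 below (24.3% and 25.2% of tested genes), replicate 3 had 7 above and 12 below (29.4% and 26.9%), and replicate 4 had 16 above and 9 below (34.3% and 30.9%). The median deviation of the members from the PBS mean, on the log2(CPM + 1) scale, was -0.00, -0.04, -0.03 and 0.06 in rFSTL1 replicates 1 to 4 and -0.04 to 0.02 in the PBS libraries. The libraries of the 2 groups thus overlapped in this median, with rFSTL1 replicate 4 highest.

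**Figure D3:**
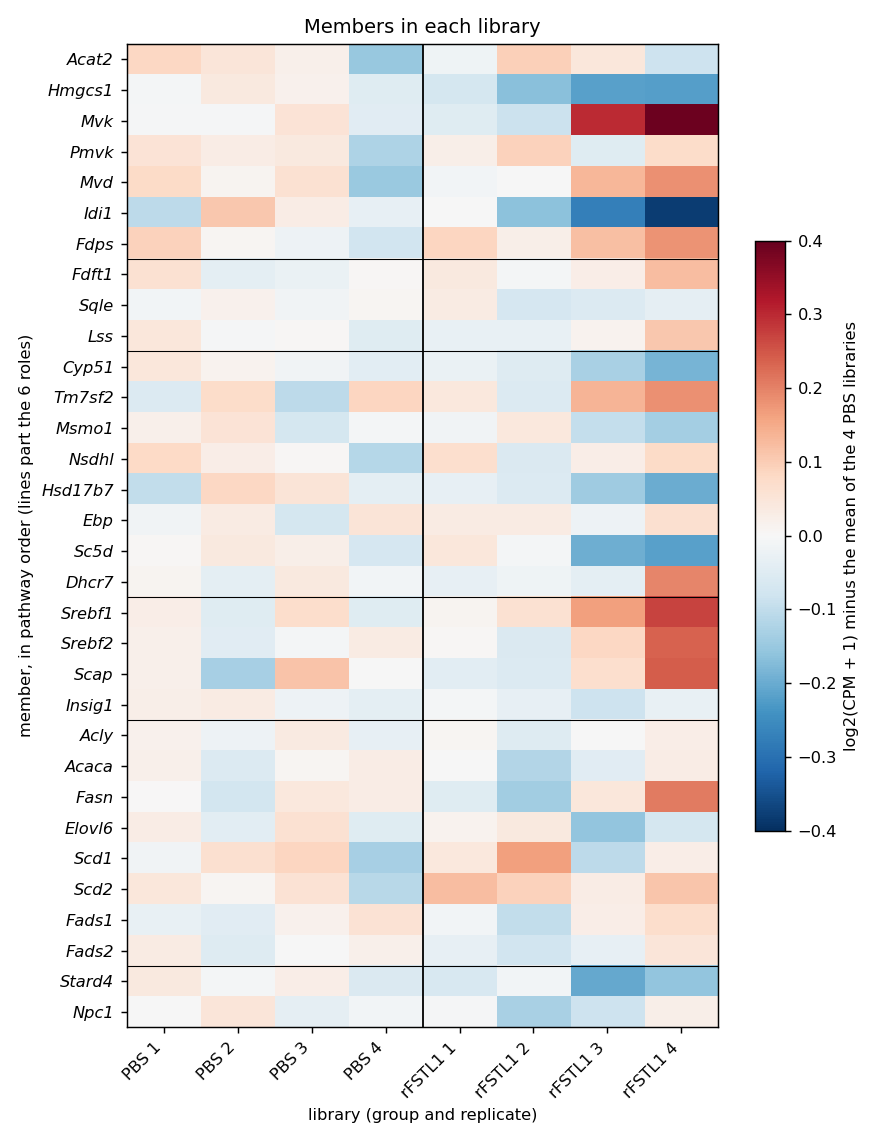
Level of each tested member (rows, in pathway order) in each library (columns), as log2(CPM + 1) minus the mean of the 4 PBS libraries (colour, blue lower and red higher). Hmgcs1 is below 0 in all 4 rFSTL1 columns, as are Cyp51, Hsd17b7, Stard4, Insig1 and, barely, Idi1. Fdps, Srebf1 and Scd2 are above 0 in all 4. Idi1 and Sc5d are lowest in rFSTL1 replicates 3 and 4, and Mvk and Srebf1 are highest there.

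Levels between members were compared per length, as CPM per kilobase of the longest GENCODE M21 transcript. Under PBS, Scd2 stood highest with 241 ± 12.5 CPM per kilobase (SD, n = 4), followed by Fads2 with 149 ± 3.86 and Idi1 with 138 ± 8.57. Acly (115 ± 2.60), Fdps (114 ± 5.63) and Hmgcs1 (111 ± 2.84) followed, and these neighbours differed by less than their combined spread. Among the regulators the order was Insig1 (70.7 ± 1.74), Srebf2 (63.0 ± 1.51), Srebf1 (23.1 ± 0.956) and Scap (18.3 ± 1.29). Scd1 had 25.2 ± 1.71 CPM per kilobase, and Tm7sf2 stood lowest with 1.49 ± 0.118. By this measure 31 of the 32 members lay above the median tested gene and 14 above the 90th percentile.

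**Figure D4:**
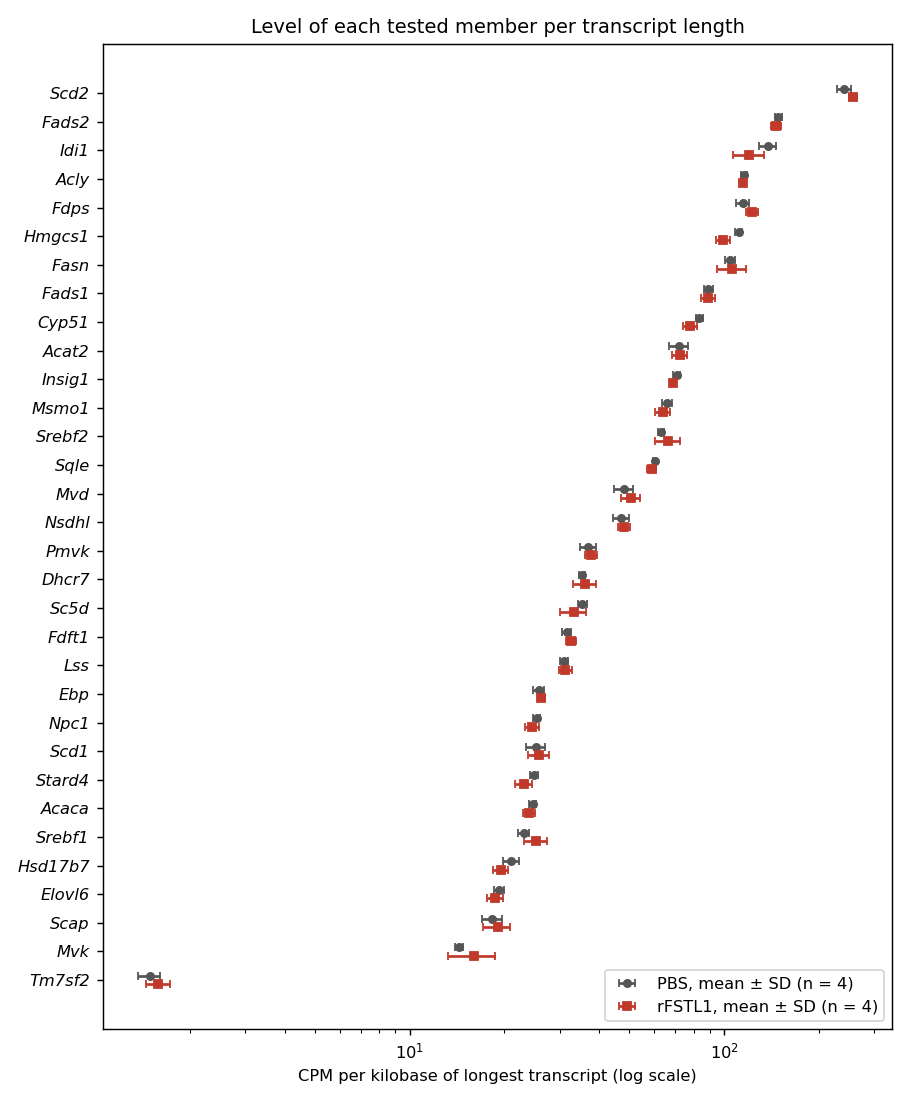
CPM per kilobase of the longest transcript (x axis, log scale) of each tested member (y axis, ordered by the PBS mean), as mean ± SD (n = 4) in each group. The PBS and rFSTL1 points lie close together for every member from Scd2 (241 CPM per kilobase under PBS) to Tm7sf2 (1.49).

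Outside the list, 46 further genes of SREBP processing, the isoprenoid branch, fatty acid supply, and sterol storage and transport were followed, of which 44 were tested. By edgeR, 0 had an adjusted p under 0.05 (lowest 0.142). Without adjustment, 6 had a p under 0.05 with a higher level and 4 with a lower one, beside 8.29% and 7.56% of all tested genes. The groups did not overlap in 4 higher genes and 1 lower gene, Lipa, the lysosomal lipase that frees cholesterol (log2 fold change -0.09), beside 4.63% and 3.53% of all tested genes.

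The 6 with the smallest p included Paqr3, which anchors SCAP and SREBP in the Golgi, with 4.25, 6.20, 5.67 and 5.12 CPM under PBS and 6.75, 7.27, 8.06 and 7.24 CPM under rFSTL1, with no overlap. Its log2 fold change was 0.46 (standard error 0.13, edgeR adjusted p = 0.142), the highest value of the 44, and limma voom gave an adjusted p of 0.0417, where 2.27% of all tested genes were called higher. Rnf145, a sterol-responsive ubiquitin ligase, had 0.13 (adjusted p = 0.212 by edgeR), Nr1h2, which encodes the oxysterol receptor LXR beta, 0.24 (0.206) and Mylip, a ubiquitin ligase of lipoprotein receptors, 0.33 (0.245), and their groups did not overlap either. Nus1, a subunit of the enzyme that makes dolichol, had -0.13 and Tecr, a fatty acid reductase, 0.14.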

How the data were processed

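RNA from RAW264.7 cells was enriched for poly(A) RNA and sequenced on an Illumina NovaSeq for 4 PBS and 4 rFSTL1 libraries. The submitters' processing notes name Bowtie2 2.2.8, HISAT2, StringTie 1.3.1 and DESeq2, and the genome build and annotation are not given in the sources used here. The authors deposited expected counts (estimated counts) per gene without normalization. Values above 0 included 13.0% with decimals, and all were rounded to whole numbers, whereas the design had assumed whole counts. A symbol was missing for 112 rows.

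Genes were kept with filterByExpr (minimum count 10), leaving 10748, scaled by TMM and compared with edgeR 4.0.16 (glmQLFit, glmQLFTest) under R 4.3.3. P-values were adjusted by Benjamini-Hochberg, with calls made under 0.05. A standard error was the absolute log2 fold change over the root of F, and intervals used the test's degrees of freedom. CPM were TMM-scaled, and exact permutation tests used log2(CPM + 1) over 70 assignments. The code was tested on simulated counts. Alternatives were DESeq2 1.42.0, limma 3.58.1 (voom with sample quality weights), other scalings and filters, the replicate block and leaving out each library.

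Members and lists were chosen with earlier results of these data known. Values in each library are given for members whose groups did not overlap, the 8 with the smallest p and fixed regulators and enzymes (those of Mvk and Sc5d, and the naming of Lipa, were added after their values were seen). Lengths were the longest GENCODE M21 transcript (99.7% of tested genes matched). Library totals limit precision to counting and replicate error.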

Additional observations from a re-analysis of the deposited data

Results flagged for a closer look

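In 2 of the 152 groups of 4 libraries examined over the members and the further sterol and lipid genes, 1 library stood far from the other 3, where chance at 1 in 20 would give about 7.6. Pmvk had 40.3 CPM in PBS replicate 4, against 44.9 to 45.7 CPM in the other PBS libraries. Dhcr7 had 114 CPM in rFSTL1 replicate 4, against 96.9 to 98.3 CPM in the other rFSTL1 libraries.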

How the results depend on the processing

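Of 480 refits of the 32 members under the alternatives, 451 kept direction and call. For 0 members called by edgeR, DESeq2 called 1 (Hmgcs1), limma voom with sample quality weights 2 (Hmgcs1 and Idi1), an adjusted p under 0.1 gave 0 (133 of all 10748 genes), and leaving out 1 library gave 0 to 2, the 2 without rFSTL1 replicate 1, both lower (85 genes higher and 14 lower of 10830). Of the further genes, voom called 1 (Paqr3). The 6 members with an unadjusted p under 0.05 (15.9% of all genes) became 2 to 10 without 1 library, 2 without PBS replicate 2 (11.1%) or rFSTL1 replicate 4 (11.6%), 3 without rFSTL1 replicate 3 (10.2%) and 10 without rFSTL1 replicate 2 (21.4%), so the count over all genes moved in the same direction in these 4 cases. Members without overlap were 1 to 4 without 1 library, beside 498 higher and 379 lower of all 10748 genes with every library. They were 4 lower without rFSTL1 replicate 1 (910 higher and 764 lower genes), 3 lower without PBS replicate 4 (635 and 522), 2 lower without rFSTL1 replicate 2 (916 and 733), and 1 higher and 1 lower without PBS replicate 1 (751 and 734) or rFSTL1 replicate 3 (604 and 465). Without 1 library the median log2 fold change was -0.0189 (without rFSTL1 replicate 4) to 0.0154, and -0.0163 without PBS replicate 4. Over the other alternatives it was -0.00221 (voom) to 0.0230 (upper-quartile scaling). What causes these shifts was not tested. Other scalings changed no member's call. Over all genes, edgeR called 37, upper-quartile scaling 56, all genes with at least 1 count 127, DESeq2 192, voom 454 and leaving out 1 library 11 to 99.

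Direction reversed under at least 1 alternative for 10 members, all near 0. Without 1 library the log2 fold change was -0.0455 to 0.0386 for Acat2, -0.0115 to 0.0618 for Pmvk, -0.0152 to 0.0261 for Lss, -0.0152 to 0.0470 for Nsdhl, -0.0305 to 0.0543 for Dhcr7, -0.0112 to 0.0985 for Scap, -0.0214 to 0.00769 for Acly, -0.0464 to 0.0635 for Fasn, -0.0228 to 0.0761 for Scd1 and -0.0276 to 0.0211 for Fads1. Voom gave -0.00437 for Pmvk, -5.38e-05 for Dhcr7, -0.0279 for Scd1 and 0.00921 for Fads1, and upper-quartile scaling 0.00567 for Acly and 0.00846 for Fads1.

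Same-numbered PBS and rFSTL1 libraries shared little deviation from their group means (correlations over all genes -0.0904, 0.0847, -0.0127 and 0.000976). These values cannot tell whether such libraries were prepared together. With the replicate block 0 members were called (41 of all 10748 genes), 5 had an unadjusted p under 0.05 (15.8% of all genes) and Hmgcs1 had a log2 fold change of -0.169.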
